A study of Mus musculus with 24 samples.

Results

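The genes described here are 10 positive acute phase protein genes, whose products the liver secretes in larger amounts during inflammation and injury: Hp, Saa1, Saa2, Saa3, Orm1, Orm2, Lcn2, Serpina3n, Itih3 and Itih4. They were taken by symbol from the gene count files of every library, as 10 of 50657 gene symbols. Of the 10, 9 passed a filter on low counts together with the rest of the 13204 genes tested, and Saa3 did not. RNA had been sequenced from the livers of individual mice, 3 in each of 8 groups. The groups were mice lacking the epidermal growth factor receptor gene Egfr in hepatocytes (KO) and wild-type mice (WT), each labelled 0, 1, 3 or 12 h after a 500 mg/kg overdose of acetaminophen, a drug whose overdose injures hepatocytes. Only hepatocytes were targeted, so other liver cells keep the gene. The labels did not give the Cre driver, the strain, sex or age of the mice, or whether the 0 h mice received anything, and no untreated mice were labelled at later times. A change from 0 h therefore cannot be told apart from one of time of day or handling. The labels described each sample as liver from an individual mouse, so the p-values below measure the spread between mice. Further times named in the series text were not analysed here.

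In the acute phase response, cytokines released at sites of damage reach the liver and act on hepatocytes. Interleukin 6 signals through its receptor and Stat3, and interleukin 1 acts through NF-kB, with the C/EBP factors joining on many promoters. The response is a classical readout of inflammation in liver, and serum amyloid A and haptoglobin are its best known products in the mouse.

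Gene counts ran from 3.54 to 7.58 M per library (median 5.93 M), and 1 read was worth 0.124 to 0.349 CPM, the unit of the levels below, which puts counts on a common library size scaled by the trimmed mean of M-values (TMM). Egfr, the targeted gene, lay between 43.0 and 335 CPM in KO libraries and between 203 and 633 CPM in WT libraries, and 2 KO libraries lay within the WT range. The library labelled KO 1 h replicate 1, at 335 CPM, lay within the 332 to 407 CPM of WT livers at its own time, so its Egfr level went against its label. The library labelled KO 3 h replicate 3, at 271 CPM, was below the 303 to 633 CPM of WT livers at 3 h and above the 203 to 262.5 CPM of WT livers at 12 h. Summed markers of hepatocytes (8 genes such as albumin) were 37481 to 39618 CPM in KO livers and 45293 to 51181 CPM in WT livers at 3 h, with none at 0, as for liver tissue. WT 3 h replicates 2 and 3 stood apart from the other 22 libraries for the genes described here, and calls that rest on them are given with and without them.

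The high levels in WT livers at 3 h came from 2 of the 3 mice. Summed over the 10 genes, the level was 1885 CPM in WT 3 h replicate 1, 8228 CPM in replicate 2 and 7879 CPM in replicate 3, against 1239 to 2452 CPM in the other 21 libraries. Replicates 2 and 3 were above all other 22 libraries for 9 of the 10 genes. Saa3 was the exception, at its highest in KO 12 h replicate 3. Replicate 1 was the lowest of the 3 WT mice at 3 h for 10 of 10 genes, and its summed level lay within the range of the other groups.

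**Figure D1:**
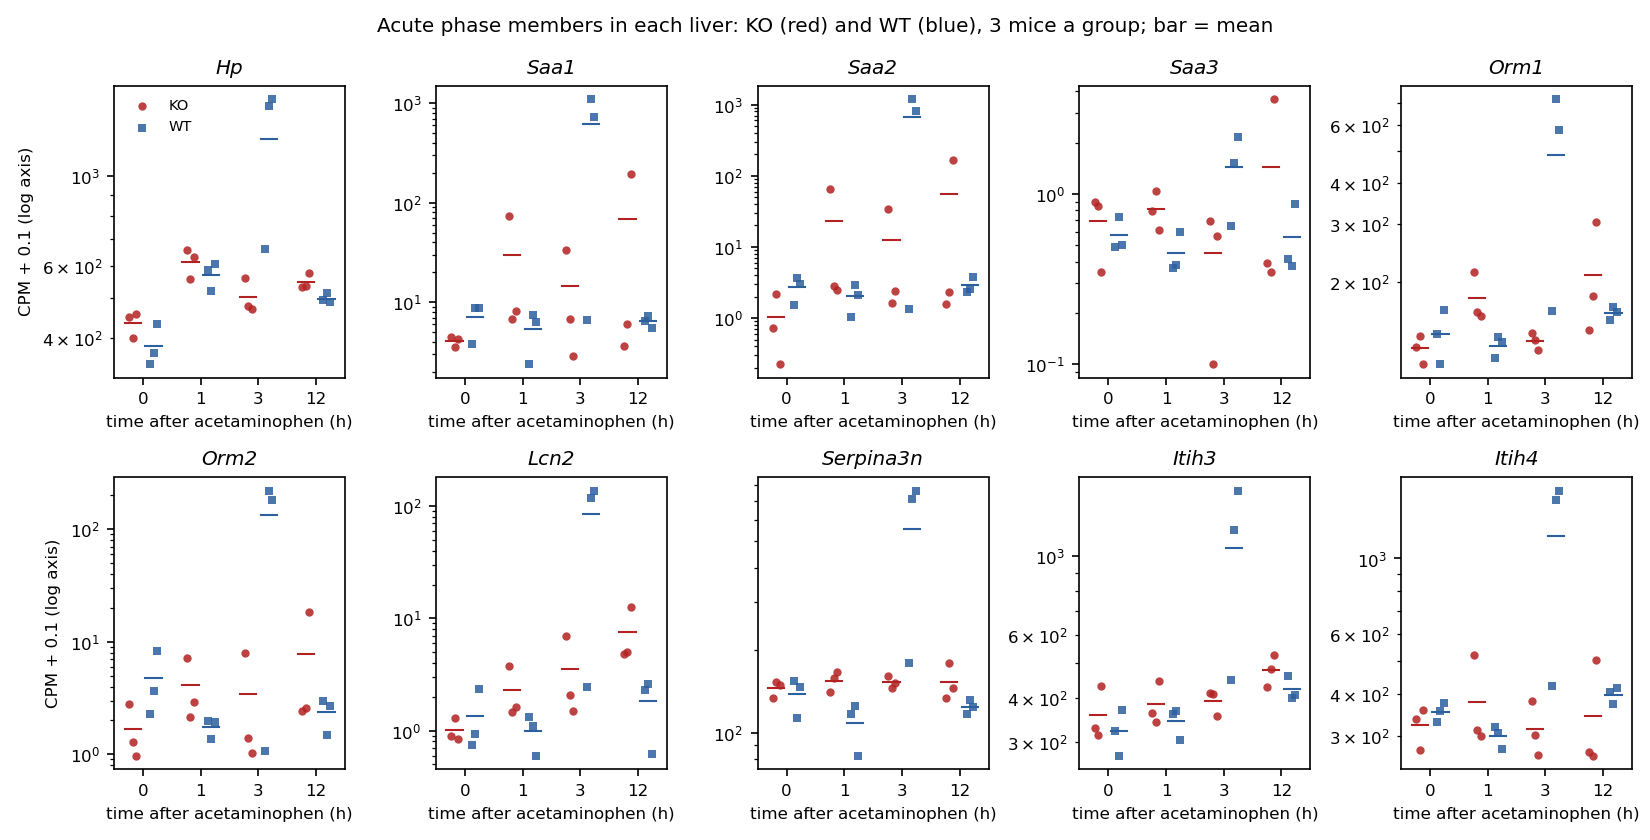
Level of each of the 10 genes in each liver (CPM + 0.1, log axis) against the time after acetaminophen, with KO mice as red circles and WT mice as blue squares, 3 mice a group, and the group mean as a bar. At 3 h WT replicates 2 and 3 stand above the other livers in 9 of the 10 panels, whereas the remaining WT mouse, replicate 1, lies near the KO mice.

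Haptoglobin, which binds free hemoglobin in plasma, was the most abundant of the 10 at 0 h per length of transcript, at 324 CPM per kilobase in KO and 283 CPM per kilobase in WT livers. At 3 h Hp was at 560, 479 and 471 CPM in the 3 KO livers, against 662, 1489.6 and 1551 CPM in the 3 WT livers. The groups did not overlap, and each WT mouse at 3 h, replicate 1 included, was above the WT livers at 0 h (343, 366 and 433 CPM). In WT livers Hp rose at 3 h by 1.70 on the log2 scale relative to 0 h (SE 0.189, edgeR quasi-likelihood test, adjusted p = 7.58e-07), and the rise was 0.80 (SE 0.154, adjusted p = 0.000819) without WT 3 h replicates 2 and 3. KO livers had 449.9, 398 and 457 CPM of Hp at 0 h, and the KO change at 3 h did not pass (edgeR adjusted p = 0.55).

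The serum amyloid A proteins Saa1 and Saa2 are apolipoproteins of high-density lipoprotein. Saa1 was at 33.7, 6.75 and 2.80 CPM in KO livers at 3 h, and at 6.47, 1100.1 and 735 CPM in WT livers. Saa2 was at 33.6, 1.53 and 2.33 CPM in KO livers at 3 h, and at 1.24, 1188 and 816 CPM in WT livers. The high WT mice stood 157 and 105 times above the WT 0 h mean for Saa1, while the remaining WT mouse was at 0.924 times that mean. For Saa2, from a WT 0 h mean of 2.64 CPM, the ratios were 449.7 and 309 in the high mice and 0.469 in replicate 1. The high mice were the highest of the series for both genes, and replicate 1 lay within the range of the 0 h livers. Both genes rose in the fit of WT livers at 3 h against 0 h, Saa1 by 6.48 (SE 1.66, edgeR adjusted p = 0.0144) and Saa2 by 8.03 (SE 2.09, edgeR adjusted p = 0.0161) on the log2 scale, with groups that overlapped. The sign turned without WT 3 h replicates 2 and 3, to -0.08 for Saa1 and -1.01 for Saa2, and neither was called. Single 0 h mice also decided these calls: without WT 0 h replicate 1 or 3 the adjusted p was 0.0665 or 0.054 for Saa1, and without WT 0 h replicate 1, 2 or 3 it was 0.0709, 0.0535 or 0.0621 for Saa2.

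Saa1 and Saa2 are neighbours on chromosome 7 and nearly identical, so their counts are uncertain as a split between them. Their first listed transcripts matched over 572 of 609 aligned bases (93.9%), with an identical run of 99 bases. The ratio of Saa2 to Saa1 CPM was 1.08 and 1.11 in the high WT 3 h mice and 0.191 in replicate 1, and 0.996 or lower in the other 21 libraries. Together the pair made up 27.8% and 19.7% of the summed level of the 10 genes in WT 3 h replicates 2 and 3, against 0.409% in replicate 1. Saa3, which in mice is made mainly by macrophages and fat cells, matched Saa1 at 61.0% of aligned bases and stayed low throughout. It had 91 counts over 24 libraries, with 0.589, 0 and 0.467 CPM in KO livers and 0.551, 1.42 and 2.05 CPM in WT livers at 3 h. At its own highest, in KO 12 h replicate 3, Saa3 was at 3.49 CPM. Fitted without the filter, Saa3 was 1.50 higher on the log2 scale in WT livers at 3 h than at 0 h (SE 0.637), and the edgeR adjusted p was 0.218.

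The orosomucoids Orm1 and Orm2 are plasma lipocalins that carry basic drugs and lipids. Orm1 was at 139, 133 and 124 CPM in KO livers at 3 h, against 162, 721 and 581 CPM in WT livers. Orm2 was at 7.80, 1.31 and 0.934 CPM in KO livers at 3 h, against 0.964, 220.2 and 182 CPM in WT livers. As with the serum amyloids, WT 3 h replicate 1 lay within the range of the other 21 libraries, and its Orm2 level was 0.206 times the WT 0 h mean. In WT livers at 3 h against 0 h, Orm1 rose by 1.82 (SE 0.375, edgeR adjusted p = 0.0034) and Orm2 by 4.80 (SE 1.09, edgeR adjusted p = 0.00676) on the log2 scale. Leaving out WT 3 h replicates 2 and 3 put Orm1 at 0.23 and turned Orm2 to -2.28, neither called. The pair share 91.0% of the bases of their first listed transcripts (705 of 775) with an identical run of 141 bases, so reads may be split between them with error. Orm2 was at 0.306 and 0.313 times Orm1 in the high mice, and at 0.0596 times or less in the other 22 libraries.

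Lipocalin 2, which binds bacterial siderophores and so withholds iron, had one of the lowest levels at 0 h, from 0.745 to 1.19 CPM in KO and from 0.644 to 2.27 CPM in WT livers. At 3 h Lcn2 was at 6.92, 1.96 and 1.40 CPM in KO livers, against 2.34, 118 and 137 CPM in WT livers. The high WT mice stood 94.3 and 109 times above the WT 0 h mean, and replicate 1 stood 1.87 times above it. Lcn2 rose by 6.01 on the log2 scale in WT livers at 3 h (SE 1.07, edgeR adjusted p = 0.00108), and by 0.85 without WT 3 h replicates 2 and 3, which was not called (edgeR adjusted p = 0.686).

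The protease inhibitor Serpina3n and the inter-alpha-trypsin inhibitor heavy chains Itih3 and Itih4 changed by smaller factors from much higher levels. Serpina3n was at 161, 145 and 151 CPM in KO livers at 3 h, against 179, 712 and 765 CPM in WT livers. Itih3, whose protein is bound to hyaluronan in the extracellular matrix, was at 414, 409.8 and 356 CPM in KO livers at 3 h, against 448, 1188 and 1528 CPM in WT livers. Itih4 was at 379.6, 302 and 263 CPM in KO livers at 3 h, against 422, 1490.4 and 1582 CPM in WT livers. For each of the 3 genes the lowest WT liver was above the highest KO liver. Relative to 0 h in WT livers, Serpina3n rose by 2.00 (SE 0.347, adjusted p = 0.000872), Itih3 by 1.71 (SE 0.281, adjusted p = 0.000416) and Itih4 by 1.72 (SE 0.37, adjusted p = 0.00456) in edgeR's test. They were at 0.37, 0.48 and 0.26 without WT 3 h replicates 2 and 3, and none of the 3 was called.

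Of the 9 genes tested, 9 rose in WT livers at 3 h relative to 0 h and 0 fell, at a median log2 fold change of 2.00, against a median of 0 over all genes. Of all genes tested 7.28% were called higher, and 14.1% passed in either direction. The groups did not overlap for 5 of the 10, which were Hp, Lcn2, Serpina3n, Itih3 and Itih4, and 14.2% of all genes tested were higher without overlap. With WT 3 h replicates 2 and 3 left out, each of the 10 genes passed the filter, the count was 1, Hp, and 7.00% of all genes passed in either direction. A fit of the WT 0 h and 3 h groups alone called 2, Hp and Itih3, with adjusted p from 0.0747 to 0.23 for the others.

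**Figure D2:**
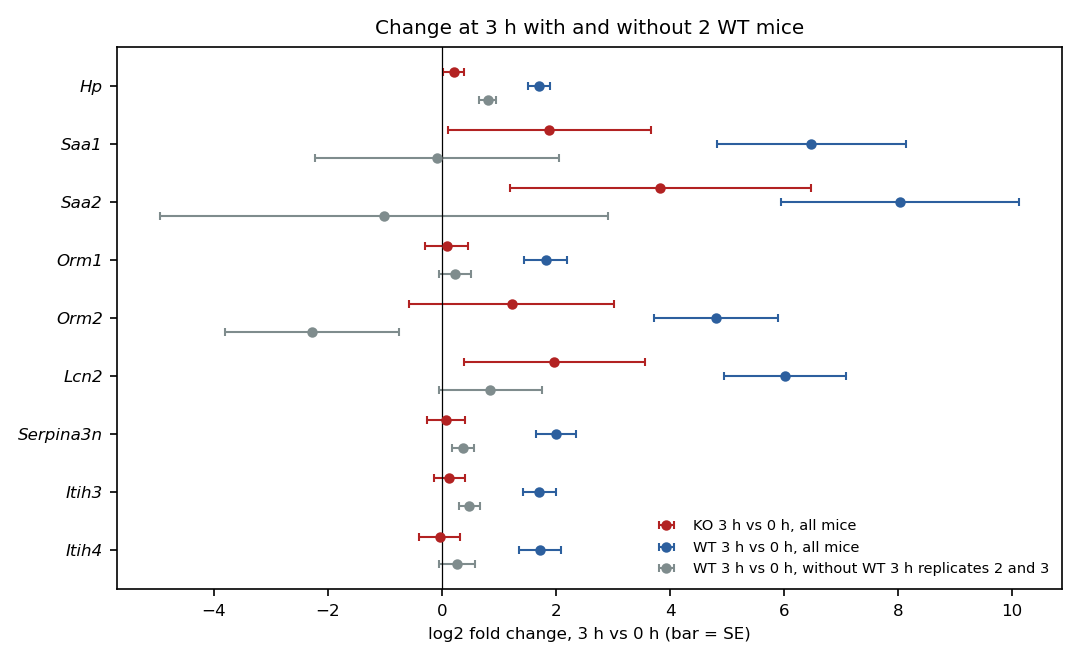
Log2 fold change at 3 h against 0 h (horizontal axis, bar = SE) of the 9 genes tested, in KO livers with all mice (red), in WT livers with all mice (blue) and in WT livers without WT 3 h replicates 2 and 3 (grey). The blue points run from 1.70 for Hp to 8.03 for Saa2, and 3 of the grey points, Saa1, Saa2 and Orm2, lie below 0.

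In KO livers at 3 h, 0 of the 9 genes tested passed against 0 h, where 9.95% of all genes passed, and 0 of the 9 had an unadjusted p under 0.05. The same count by DESeq2 was 0. Fitted differences ran from -0.04 to 3.83 on the log2 scale, with a median of 0.21. The high end was Saa2, whose 33.6 CPM in KO 3 h replicate 1 stood 17.4 times above the mean of the other 2 KO mice. That mouse was the highest of its group for 10 of 10 genes, with Saa1 at 7.06 times, Orm2 at 6.96 times and Lcn2 at 4.12 times the mean of the other 2.

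KO livers at 3 h were lower than WT livers at 3 h for 7 of the 9 genes tested, and 0 were higher. Of all genes tested 0.651% were called lower. For Hp the difference, KO minus WT, was -1.29 on the log2 scale (SE 0.187, edgeR adjusted p = 0.00149). The other called genes were Orm1 (-1.89), Orm2 (-5.21), Lcn2 (-4.55), Serpina3n (-1.86), Itih3 (-1.42) and Itih4 (-1.89), with edgeR adjusted p from 0.0158 to 0.0368. Saa1 (-5.36, SE 1.54, edgeR adjusted p = 0.148) and Saa2 (-5.66, SE 1.76, edgeR adjusted p = 0.196) had the largest differences and did not pass. No KO liver overlapped a WT liver for 5 genes, Hp, Orm1, Serpina3n, Itih3 and Itih4, where 7.89% of all genes tested were lower without overlap. When WT 3 h replicates 2 and 3 were left out, 0 of the 10 then tested were called, Hp was at -0.38, Saa1 turned to 1.22, Saa2 to 3.40, Orm2 to 1.87 and Lcn2 to 0.61, and 0.191% of all genes passed. The count was also 0 when only these 2 groups were fitted. It was 1 when any single liver other than WT 3 h replicate 1 was left out of the 2 groups, namely WT 3 h replicate 2 or 3 or KO 3 h replicate 1, 2 or 3. The 1 left was Hp, and the adjusted p of the other 6 then lay between 0.0585 and 0.211. Without WT 3 h replicate 1, 9 were called, Saa1 (adjusted p = 0.0186) and Saa2 (adjusted p = 0.0327) included. With a replicate block 5 were called, since Orm2 (adjusted p = 0.102) and Lcn2 (adjusted p = 0.0714) missed.

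Whether the change from 0 h to 3 h differed between genotypes was tested as an interaction. For Hp the KO change minus the WT change was -1.49 on the log2 scale (SE 0.263, edgeR adjusted p = 0.0148), and it was the only 1 of the 9 called, where 0.0757% of all genes were called lower. The difference was negative for the other 8 as well, between -1.58 and -4.60, with edgeR adjusted p from 0.124 to 0.871. The count was 0 without WT 3 h replicates 2 and 3, where the Hp difference was -0.58 (SE 0.194, adjusted p = 0.371). Hp also missed without WT 0 h replicate 1 (adjusted p = 0.0573) and without KO 3 h replicate 3 (adjusted p = 0.0644). It was 5 without WT 3 h replicate 1, with Orm1, Serpina3n, Itih3 and Itih4 added, and DESeq2 called the same 5. The comparisons at 3 h share the WT 3 h livers, so their counts are not separate evidence.

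By 12 h the high levels were no longer found in WT livers. WT livers at 12 h were lower than at 3 h for 9 of the 9 genes tested, where 5.38% of all genes were called lower, with log2 differences of -1.31 for Hp, -1.32 for Itih3, -1.55 for Itih4, -1.61 for Orm1, -2.15 for Serpina3n, -5.63 for Lcn2, -5.87 for Orm2, -6.59 for Saa1 and -7.88 for Saa2. In edgeR's test the adjusted p ran from 1.65e-05 to 0.0245. Leaving out WT 3 h replicates 2 and 3 gave a count of 0, and Saa2 turned to 1.17 and Orm2 to 1.21. Fitting only these 2 groups called 1 gene. Leaving out WT 3 h replicate 2 gave 6, and leaving out any WT 12 h liver gave 7, with Saa1 (adjusted p from 0.0682 to 0.0784) and Saa2 (adjusted p from 0.0856 to 0.0933) lost. Against 0 h, 0 of the 9 were called in WT livers at 12 h, although 25.6% of all genes passed, and 1 had an unadjusted p under 0.05. DESeq2 also called 0. The 3 WT livers at 12 h were at 494, 515 and 489 CPM for Hp and at 6.33, 7.23 and 5.45 CPM for Saa1, close to each other. For Lcn2 they ranged from 0.519 to 2.50 CPM, a ratio of 4.82 on 18 counts in all.

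In KO livers 1 mouse at 12 h was high. KO 12 h replicate 3 had 195 CPM of Saa1, against 3.52 and 5.90 CPM in the other 2 KO mice, and 165 CPM of Saa2, against 1.47 and 2.21 CPM. Orm1 was at 304 CPM in that mouse and at 142 and 180.3 CPM in the others, Orm2 at 18.2 CPM against 2.34 and 2.46 CPM, and Lcn2 at 12.6 CPM against 4.69 and 4.91 CPM. It was the highest of its group for 9 of 10 genes, though Serpina3n, at 0.926 times the mean of the other 2, was not raised in it. This library had the fewest counts of the series. Of the 9 genes 0 were called in KO livers at 12 h against 0 h (28.8% of all genes passed), 2 had an unadjusted p under 0.05, and edgeR's adjusted p was 0.0882 for Saa1 and 0.0811 for Saa2. DESeq2 called 3, among them Saa1 and Saa2. Between KO and WT livers at 12 h, 0 were called (0.053% of all genes passed), 0 had an unadjusted p under 0.05, and DESeq2 called 0. Hp, Lcn2 and Serpina3n were higher in KO livers without overlap, 3 of 9, where 7.13% of all genes were. The change by 12 h did not pass as a difference between genotypes for any of the 9 (0 called by edgeR and by DESeq2, 0.0227% of all genes passed, 0 at an unadjusted p under 0.05).

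At 1 h the only called member was Hp, in WT livers, with 588, 521 and 607 CPM at 1 h against 343, 366 and 433 CPM at 0 h. The rise was 0.59 on the log2 scale (SE 0.185, edgeR adjusted p = 0.0489), where 4.09% of all genes were called higher, and the call was lost when any 1 of the 6 livers was left out (adjusted p from 0.0573 to 0.167). In KO livers Hp was at 657, 557 and 634 CPM at 1 h against 449.9, 398 and 457 CPM at 0 h, a difference of 0.50 that did not pass (edgeR adjusted p = 0.0971). Of the 9 genes 0 were called in KO livers at 1 h against 0 h (7.58% of all genes passed), with 1 at an unadjusted p under 0.05 and 0 called by DESeq2. That count was also 0 without the library labelled KO 1 h replicate 1. This library, whose Egfr level went against its label, had 73.7 CPM of Saa1 and 64.5 CPM of Saa2, 9.88 and 25.2 times the mean of the other 2 mice. KO and WT livers did not overlap at 1 h for Orm1, Orm2, Lcn2, Serpina3n and the untested Saa3, each higher in KO, and 7.17% of all genes tested were higher without overlap. Of the 9, 0 passed edgeR's test of KO against WT at 1 h (0.492% of all genes passed), 0 had an unadjusted p under 0.05, and DESeq2 called 0. The change at 1 h did not pass as a difference between genotypes for any of the 9 (0 called by edgeR and by DESeq2, 0.454% of all genes passed, 0 at an unadjusted p under 0.05).

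At 0 h KO and WT livers overlapped for each of the 10 genes, and 0 of the 9 tested were called (0.0151% of all genes passed, 0 at an unadjusted p under 0.05, 0 called by DESeq2). Per length of transcript, mean levels at 0 h were in the order Hp, Orm1, the Itih genes, Serpina3n and Saa1 in both genotypes, with Orm2, Saa2, Saa3 and Lcn2 lowest. Itih3 and Itih4 changed places between the genotypes, as did Saa3 and Lcn2, and neither pair differed beyond the spread between livers. Orm1 was at 161 CPM per kilobase in KO and 178 CPM per kilobase in WT livers, Serpina3n at 70.4 and 66.9, and Saa1 at 6.62 and 11.5, in KO and WT livers. In WT 3 h replicates 2 and 3 that order was changed. There Saa2, at 1959.5 and 1347 CPM per kilobase, and Saa1, at 1806 and 1207 CPM per kilobase, were above Hp, at 1107.5 and 1153 CPM per kilobase. In WT 3 h replicate 1 Hp was at 492, Saa1 at 10.6 and Saa2 at 2.04 CPM per kilobase, so there the 0 h order of these 3 held.

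The genes fell into a steady group and a wide-ranging group also outside the high WT mice. Over the other 22 libraries the highest level was 1.93 times the lowest for Hp, 1.92 times for Itih3, 1.98 times for Itih4, 2.19 times for Serpina3n and 2.73 times for Orm1. The same ratio was 20.9 for Orm2, 25.4 for Lcn2, 85.6 for Saa1 and 1327 for Saa2, whose lowest value of 0.124 CPM was a single read. Orm2, Lcn2 and Saa1 were also low, with lowest values of 0.869, 0.496 and 2.28 CPM. Lowest values of the steady genes ran from 82.1 CPM for Serpina3n to 343 CPM for Hp. Of the 22 libraries, KO 12 h replicate 3 was the highest for all the wide-ranging genes. It was also the highest for Orm1 and Itih3 of the steady genes, so this did not separate the groups. Across all 24 libraries each gene's log2 CPM correlated with the mean of the other 9 at a Pearson r between 0.69 (Saa3) and 0.968 (Saa1), as a description over libraries that share the high WT mice. Over the 22 libraries without them r was 0.932 for Saa1, 0.906 for Saa2, 0.831 for Orm1 and 0.809 for Orm2. It was 0.716 for Lcn2, 0.637 for Itih4 and 0.618 for Saa3, and 0.409 for Itih3, 0.365 for Hp and 0.163 for Serpina3n. By r the groups were not distinct, since Orm1 of the steady group was above Orm2 and Lcn2.

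The promoters of the widest-ranging genes are shown because the factors of the acute phase response are known to act at such sites. They come from RefSeq on the mouse build GRCm38.p6, from 250 bases before to 50 bases after the annotated start, 5′ to 3′ on the gene's strand. Entries were found for 8 of the 10 genes, and Hp and Orm1 had none. Capitals mark matches, on either strand, to TTGNGNAA (C/EBP), TTCNNNGAA (STAT), CTGGGAA (the core of an interleukin 6 element), a loose NF-kB motif (GGG, then any 5 bases, then CC) and a strict one (GGG, any 2 bases, TTTCC), which is a subset of the loose form. Saa1 lies at chr7:46742931-46743230 on the minus strand, Saa2 at chr7:46751583-46751882 on the plus strand, Saa3 at chr7:46715627-46715926 on the minus strand, Orm2 at chr4:63362199-63362498 on the plus strand and Lcn2 at chr2:32387690-32387989 on the minus strand.
Saa1: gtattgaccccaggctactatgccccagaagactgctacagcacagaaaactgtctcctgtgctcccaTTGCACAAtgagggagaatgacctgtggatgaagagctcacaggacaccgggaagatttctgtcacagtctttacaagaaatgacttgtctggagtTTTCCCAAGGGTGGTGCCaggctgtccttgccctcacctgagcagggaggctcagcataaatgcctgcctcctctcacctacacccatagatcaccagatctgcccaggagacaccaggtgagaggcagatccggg
Saa2: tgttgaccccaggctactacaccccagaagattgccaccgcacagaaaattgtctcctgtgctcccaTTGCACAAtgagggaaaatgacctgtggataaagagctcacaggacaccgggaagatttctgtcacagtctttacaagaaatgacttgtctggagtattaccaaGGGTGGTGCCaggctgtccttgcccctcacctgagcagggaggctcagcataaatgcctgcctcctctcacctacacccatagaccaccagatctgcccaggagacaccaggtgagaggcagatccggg
Saa3: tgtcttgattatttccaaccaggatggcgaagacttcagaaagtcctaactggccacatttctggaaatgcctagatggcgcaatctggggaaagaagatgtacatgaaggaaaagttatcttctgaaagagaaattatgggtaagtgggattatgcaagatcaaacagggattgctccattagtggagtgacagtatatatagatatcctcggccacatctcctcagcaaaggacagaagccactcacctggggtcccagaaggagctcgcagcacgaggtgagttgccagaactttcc
Orm2: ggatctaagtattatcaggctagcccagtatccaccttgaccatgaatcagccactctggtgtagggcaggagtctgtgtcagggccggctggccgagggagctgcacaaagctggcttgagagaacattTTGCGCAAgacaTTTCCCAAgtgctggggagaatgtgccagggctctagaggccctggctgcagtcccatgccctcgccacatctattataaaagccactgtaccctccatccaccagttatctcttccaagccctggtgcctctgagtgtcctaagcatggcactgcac
Lcn2: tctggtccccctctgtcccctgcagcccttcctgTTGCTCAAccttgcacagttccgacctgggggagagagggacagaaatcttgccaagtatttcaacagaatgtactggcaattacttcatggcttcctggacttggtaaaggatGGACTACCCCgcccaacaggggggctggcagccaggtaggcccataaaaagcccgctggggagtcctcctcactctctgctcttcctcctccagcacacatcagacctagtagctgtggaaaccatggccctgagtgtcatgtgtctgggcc
The C/EBP letters were found in Saa1, Saa2, Orm2 and Lcn2, 4 of the 8 promoters, and in 13.2% of 27025 promoters of the same length. Saa1 and Saa2 are near copies, so their matches are not separate, and any link of these letters to the levels was not tested. The Saa1 and Saa2 windows were identical at 287 of 301 aligned bases (95.3%), and both hold the match TTGCACAA at 182 and 183 bases before the start. The nearby match TTTCCCAA of Saa1, directly before its NF-kB match, has no counterpart match in Saa2. Saa3 held none of the motifs. The loose NF-kB letters were found in 6 of 8 promoters, against 50.4% of all promoters, and the strict form in 1, Serpina3n, against 1.62%. The STAT letters were found in 1, Itih4, against 8.47%, and CTGGGAA in 0, against 11.1%. Some matches overlap their own reverse strand, as TTGCGCAA does in Orm2. A match is a description of letters and not of binding.

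Further acute phase genes were called in WT livers at 3 h, most of them with the high mice only. A list of 35 further acute phase genes had 34 tested. Their median log2 change in WT livers at 3 h against 0 h was 0.63, against 0 over all genes. Of all genes 7.28% were called higher there. Of the 34, 18 rose and 1 fell. These counts were 4 and 0 without WT 3 h replicates 2 and 3, and 6 and 1 when only the 2 groups were fitted. The fibrinogen chains Fga and Fgg, which form the clot, rose by 1.73 (SE 0.322, edgeR adjusted p = 0.00134) and 1.65 (SE 0.305, edgeR adjusted p = 0.00121) on the log2 scale. They were at 0.15 and 0.21 without WT 3 h replicates 2 and 3, neither called. Fgg was at 938, 894 and 915 CPM in KO livers at 3 h, against 960.2, 2972 and 3889.9 CPM in WT livers, with replicate 1 again near the KO mice. Lrg1, a leucine-rich glycoprotein of plasma, rose by 2.36 and was still called without the high mice at 0.89 (edgeR adjusted p = 0.0173). KO livers at 3 h were lower than WT livers at 3 h for 15 of the 34 and higher for 0, and for 0 of the 34 in either direction without WT 3 h replicates 2 and 3. That count was 0 to 2 without any single liver of the 2 groups other than WT 3 h replicate 1, and 3 when only these groups were fitted. Of all genes tested 0.651% were called lower in KO than in WT livers at 3 h. Among the 15 were Serping1, the C1 inhibitor, at -0.79, the hepatokine Fgl1 at -2.28, Lrg1 at -1.81, the metalloreductase Steap4 at -1.51, Fgg at -1.51 and C-reactive protein, Crp, at -0.61.

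The metallothioneins, Cd14 and Hamp behaved otherwise. Hamp, which encodes the iron hormone hepcidin, was at 174, 195.0 and 182 CPM in KO livers at 3 h, against 146, 15.0 and 68.8 CPM in WT livers. The WT mice with high acute phase levels thus had the lowest Hamp of the 6, and Hamp was called neither in WT livers at 3 h against 0 h (edgeR adjusted p = 0.449) nor between KO and WT livers at 3 h (edgeR adjusted p = 0.418). Mt2, a metal-binding protein, was at 324, 333 and 396 CPM in KO livers at 3 h, against 46.5, 61.0 and 65.8 CPM at 0 h. In WT livers it was at 646, 744 and 788 CPM at 3 h, against 72.1, 35.7 and 96.6 CPM at 0 h, so WT 3 h replicate 1 was raised with its group. Mt2 rose by 2.60 in KO and by 3.40 in WT livers at 3 h on the log2 scale (edgeR adjusted p = 6.65e-05 and 3.71e-06). Mt1 rose by 2.34 in KO and by 2.88 in WT livers, and Cd14, the lipopolysaccharide co-receptor, by 2.43 in KO and by 2.86 in WT livers. Those were the 3 genes of the list called in KO livers at 3 h, of 34, where 9.95% of all genes passed. Mt2 (3.23), Mt1 (2.54) and Cd14 (2.09) were also called in WT livers without WT 3 h replicates 2 and 3.

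Relatives of the 10 genes moved unevenly. Of 10 tested relatives, 3 rose in WT livers at 3 h against 0 h and 0 fell, where 7.28% of all genes were called higher. Ambp, which encodes the bikunin chain that joins the Itih heavy chains, rose by 0.92 (edgeR adjusted p = 0.000659), Serpina3m by 1.56 and Orm3 by 2.79. Ambp was at 419, 371 and 349.8 CPM in KO livers at 3 h, against 449, 966 and 888 CPM in WT livers. None of the 3 was called without WT 3 h replicates 2 and 3. Saa4, the constitutive serum amyloid A of plasma lipoproteins, was called lower than at 0 h at several times. It fell by 1.48 in WT livers at 1 h, by 1.17 in KO livers at 3 h, by 1.75 in KO livers at 12 h and by 1.06 in WT livers at 12 h on the log2 scale (edgeR adjusted p = 0.0141, 0.0399, 0.00159 and 0.0359). In WT livers at 3 h Saa4 was at 84.5, 166 and 193 CPM, so there it was highest in the 2 high mice. From 3 h to 12 h in WT livers its log2 difference was -1.31 (edgeR adjusted p = 0.0211), in the direction of the 9 genes tested. At 12 h Serpina3f rose by 2.87 in KO and by 1.62 in WT livers, and Serpina3g by 2.51 in KO and by 1.08 in WT livers, so these relatives were called at a time when Serpina3n was not. Serpina3f rested on few reads, 4, 9 and 9 in KO livers at 0 h and 39, 29 and 13 at 12 h. In WT livers it had 8, 12 and 14 reads at 0 h and 16, 18 and 23 at 12 h. The Serpina3 genes are a family of close copies, and their counts are uncertain for that reason.

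Genes of interleukin 6 and interleukin 1 signalling gave a different time course. Of 32 tested genes of 38, 4 rose and 6 fell in KO livers at 3 h, where 9.95% of all genes passed, and 5 rose and 5 fell in WT livers, where 14.1% passed. Without WT 3 h replicates 2 and 3 the WT counts were 1 and 2, of 33 then tested. At 12 h 13 rose and 6 fell in KO livers, and 12 rose and 5 fell in WT livers, in groups where 0 of the 9 acute phase genes were called (8 and 8 in WT livers with library size alone). Of all genes 28.8% passed in KO and 25.6% in WT livers at 12 h. At 12 h Socs3, the feedback inhibitor of this pathway, rose by 3.14 in KO livers (edgeR adjusted p = 6.94e-11) and by 4.21 in WT livers (edgeR adjusted p = 1.06e-12). The NF-kB cofactor Nfkbiz rose by 3.50 in KO and 3.42 in WT livers, Junb by 3.53 and 3.50, and the C/EBP factor Cebpd by 1.86 and 1.26, in KO and WT livers. At 3 h Socs3 was at 2.50, 2.40 and 2.02 CPM in KO livers, against 7.71, 6.50 and 6.63 CPM in WT livers, a gap in which WT replicate 1 was as high as the other 2 WT mice. KO livers were lower for Socs3 by 1.59 on the log2 scale (SE 0.328, edgeR adjusted p = 0.0145; without WT 3 h replicates 2 and 3 adjusted p = 0.15). With any 1 liver other than WT 3 h replicate 1 left out of the 2 groups, 0 genes of this list were called between them. At 0 h Socs3 was at 4.59, 7.16 and 4.35 CPM in KO livers, against 2.96, 3.15 and 3.33 CPM in WT livers. From that higher start it was called lower in KO livers at 3 h (-1.21, edgeR adjusted p = 0.0205). The change of Socs3 from 0 h also differed between genotypes, by -2.35 (KO minus WT, SE 0.451, edgeR adjusted p = 0.0262). That call was lost without WT 3 h replicates 2 and 3, at -2.48 (SE 0.535, edgeR adjusted p = 0.059).

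Stat3 itself followed the high mice. It was at 42.4, 47.7 and 40.0 CPM in KO livers at 3 h, against 50.5, 96.7 and 94.0 CPM in WT livers. Stat3 rose by 0.95 in WT livers (SE 0.194, edgeR adjusted p = 0.00162), was lower in KO than in WT livers at 3 h by 0.89 (edgeR adjusted p = 0.0236), and was called in neither comparison without WT 3 h replicates 2 and 3. Cebpd, at 17.5, 25.1 and 20.7 CPM in KO livers at 3 h and 16.4, 17.9 and 17.5 CPM in WT livers, rose in both genotypes, by 1.52 in KO and by 0.83 in WT livers (edgeR adjusted p = 1.88e-06 and 0.00214). Without WT 3 h replicates 2 and 3 the WT difference was 0.75 and was not called (edgeR adjusted p = 0.0648). The cytokine Il6 was at 0.698 CPM or less in each of the 24 libraries and at 0 in most, so no level could be compared.

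No gene of a negative acute phase list was called lower in WT livers at 3 h. The list held plasma proteins whose synthesis is known to drop in this response, and others such as Ttpa, Serpina1c and Serpina1e. Of 21 tested, 5 rose and 0 fell in WT livers at 3 h against 0 h, where 14.1% of all genes passed. In KO livers 0 changed, where 9.95% of all genes passed. Transferrin, Trf, which carries iron, was at 1798, 1484 and 1441 CPM in KO livers at 3 h, against 1831, 4386 and 3653 CPM in WT livers. It rose by 0.87 in WT livers (edgeR adjusted p = 0.00448), and albumin, Alb, rose by 0.76 (edgeR adjusted p = 0.000345). The other 3 were Ahsg (0.79), Ttr (0.53) and Gc (0.45). KO livers at 3 h were lower than WT livers for Trf (-1.06), Hrg (-0.62) and Ahsg (-0.62), 3 of 21, and 0 were higher. Of all genes tested 0.651% were called lower there. Without WT 3 h replicates 2 and 3 the WT difference was 0.53 for Ttr and 0.54 for Alb. It was then 0.29 for Ahsg, 0.22 for Gc and 0.02 for Trf. The differences of KO from WT livers at 3 h were then -0.20 for Trf, -0.15 for Hrg and -0.10 for Ahsg. These values rest on WT 3 h replicate 1 as the only WT liver at 3 h. They are effect sizes, and none of the calls above can be taken to hold from them.

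**Figure D3:**
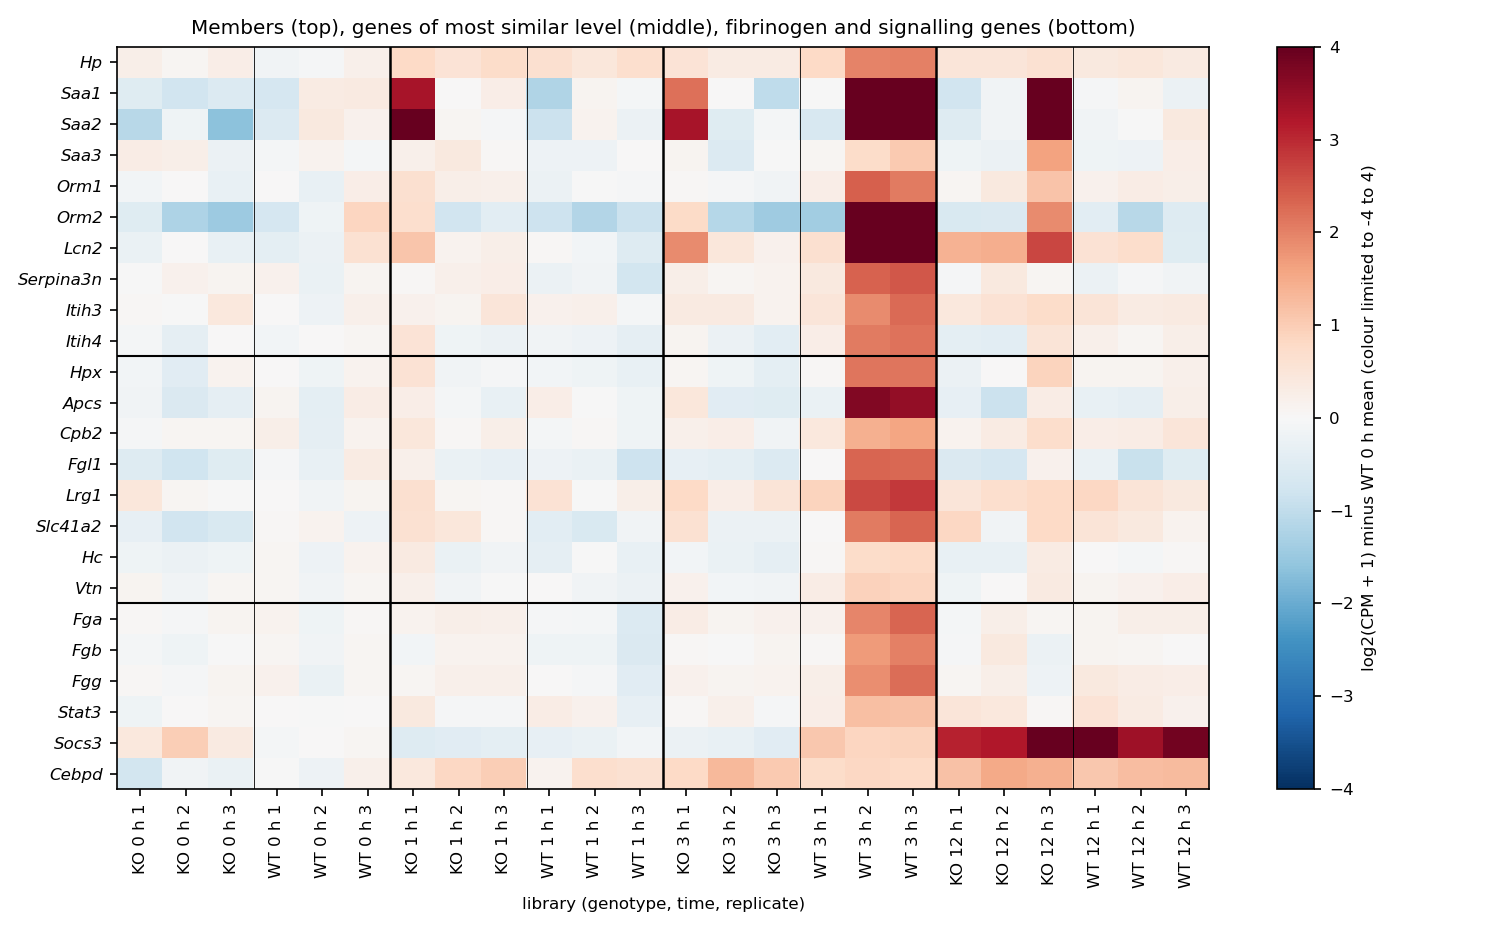
Difference of log2(CPM + 1) from the WT 0 h mean (colour, limited to 4 either way) for the 10 genes, 8 genes of the most similar level and 6 fibrinogen and signalling genes (rows) in each of 24 livers (columns, KO left of WT at each time). The columns WT 3 h 2 and 3 are raised over the acute phase and fibrinogen rows. Of the 10 genes, Saa1, Saa2, Orm2 and Lcn2 are darkest there and Saa3 is palest. The Socs3 row is dark over the 12 h columns of both genotypes.

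The genes most like the 10 were sought among 7879 others with a mean of at least 5 CPM, by Pearson r with the mean log2 CPM of the 10 over 24 libraries. They were Hpx (0.959), Apcs (0.908), Cpb2 (0.907), Fgl1 (0.907), Lrg1 (0.897), Slc41a2 (0.892), Hc (0.89) and Vtn (0.882). Hpx, hemopexin, which binds free heme, was at 541, 450.1 and 392 CPM in KO livers at 3 h, against 521, 2261 and 2237 CPM in WT livers. Apcs, serum amyloid P, was at 11.3, 5.66 and 5.45 CPM in KO livers at 3 h, against 6.47, 116 and 102 CPM in WT livers. Both showed the high and low WT mice of the 10 genes, which follows from how they were picked. Over the 22 libraries without WT 3 h replicates 2 and 3, Hpx had 0.805 and ranked 1, Hc had 0.691 and Slc41a2 had 0.659. Apcs had 0.489 and ranked 139, and 3 of the 8 (Hpx, Hc and Slc41a2) were still among the 8 highest.

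Markers of other cell types moved with these mice in part. In bulk liver, fewer cells of a type and less RNA per cell cannot be told apart. Summed erythroid markers (5 genes) were at 55.1, 59.3 and 42.2 CPM in KO livers at 3 h, against 80.1, 252 and 331 CPM in WT livers, so the WT mice with high acute phase levels had the highest erythroid levels of the series. Of the 5, 3 were lower in KO than in WT livers at 3 h and 1 was higher in WT livers at 3 h than at 0 h, and both counts were 0 without WT 3 h replicates 2 and 3. Macrophage and Kupffer cell markers (14 genes) summed to 66.3 to 88.5 CPM in KO livers and to 88.7, 138 and 192 CPM in WT livers at 3 h, within the 94.7 to 175 CPM of WT livers at 0 h for replicate 2 but not for the other 2 mice. Of 12 tested, 1 was lower in KO than in WT livers at 3 h, and 0 without WT 3 h replicates 2 and 3. Neutrophil markers (15 genes), a cell type that also makes Lcn2, summed to 1.09 to 2.36 CPM in KO livers and to 1.65, 5.28 and 6.94 CPM in WT livers at 3 h, with 0 tested and Ltf and Stfa2l1 at 0 in WT livers. At 12 h they summed to 4.91 to 6.98 CPM in KO and to 6.74 to 13.1 CPM in WT livers. Lcn2 at 12 h was at 4.69 to 12.6 CPM in KO and 0.519 to 2.50 CPM in WT livers. Adipocyte markers (5 genes) summed to 3.89 to 4.42 CPM in KO livers and to 5.51 to 9.55 CPM in WT livers at 3 h, with Adipoq and Retn at 0 in both. The part of these markers in the acute phase differences was not tested. In KO against WT livers at 3 h, 0 of 8 endothelial and 0 of 8 stellate markers tested were called. Cholangiocyte markers had 0 called of 2 tested, lymphocyte markers 0 of 1 and pancreas markers 0 of 1, too few to describe those cells. Of all genes tested 0.651% were called lower in that comparison.

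**Figure D4:**
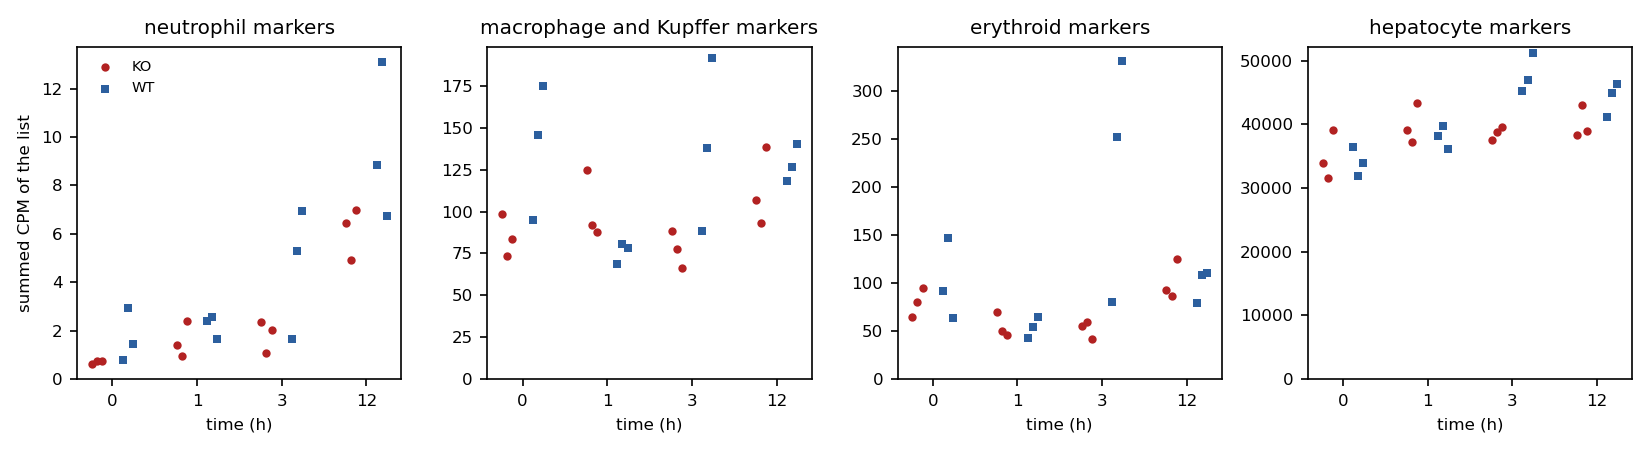
Summed CPM of neutrophil, macrophage and Kupffer cell, erythroid and hepatocyte marker lists (one panel each) against the time in h, with KO livers as red circles and WT livers as blue squares, 1 point a liver. The erythroid panel shows 2 WT livers at 3 h, at 252 and 331 CPM, above the other 22.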

How the data were processed

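The authors deposited a table of whole-number read counts per gene for each library. Per the submitters' processing notes, reads were aligned with STAR to mm39, while its version and the gene annotation were not stated in the labels or file headers. The counts not assigned to a strand were used. Ambiguous reads took 26.3 to 30.8% of reads per library, multimapping reads 7.23 to 8.70% and reads in no gene 21.2 to 22.7%, and these lines stayed out of library sizes and tests. In R 4.3.3, edgeR 4.0.16 was run with its expression filter, TMM scaling and quasi-likelihood F-tests over 8 groups and 24 libraries (16 residual degrees of freedom), with two-sided p-values adjusted by the Benjamini-Hochberg method over 13204 genes at 0.05. The script was tested on simulated data. SEs were the log2 fold change divided by the square root of F. Alternatives were RLE scaling, library size alone, other filters, gene-strand counts, a replicate block, DESeq2 1.42.0, the compared groups alone, and leaving out libraries. The genes and lists were chosen with earlier results of these data known. Every gene of the 10 is named. From the lists up to 6 called genes of smallest p per comparison were eligible, some were left out for length, and members named for per-liver values were chosen after their values were seen.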

Additional observations from a re-analysis of the deposited data

Results flagged for a closer look

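The change of Hp from 0 h to 3 h differed between the genotypes by a test of the difference itself, at -1.49 on the log2 scale (KO minus WT, SE 0.263, edgeR adjusted p = 0.0148). Without WT 3 h replicates 2 and 3 it was -0.58 (SE 0.194, edgeR adjusted p = 0.371) and was not called. Hp was higher at 3 h than any 0 h liver of its own genotype in 3 of 3 KO and in 3 of 3 WT livers. In WT livers 14.2% of all genes tested were higher without overlap, and that share was not taken for KO livers. The KO change was 0.21 on the log2 scale and did not pass (edgeR adjusted p = 0.55). The lowest KO liver at 3 h was at 471 CPM and the highest at 0 h at 457 CPM.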

How the results depend on the processing

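With 3 mice a group and 2 WT mice at 3 h far above the third, the spread of these genes at 3 h rests on few livers, and genes near 1 CPM rest on a few reads. The fit over 8 groups borrows its spread from groups that vary less.

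Counts of the 9 tested genes called moved as follows. Fitting only the compared groups gave 2 in place of 9 (WT 3 h against 0 h), 0 in place of 7 (KO against WT at 3 h), 0 in place of 1 (difference of the changes at 3 h), 1 in place of 9 (WT 12 h against 3 h), 2 in place of 0 (WT 12 h against 0 h), 2 in place of 0 (KO 1 h against 0 h) and 3 in place of 0 (KO 12 h against 0 h). Leaving out WT 3 h replicates 2 and 3 gave 1, 0, 0 and 0 in the first 4 of these. DESeq2 gave 3 for KO 12 h against 0 h, 5 for the difference of the changes at 3 h and 0 for WT 1 h against 0 h. For WT 1 h against 0 h, library size alone and gene-strand counts also gave 0 in place of 1. For KO 1 h against 0 h, no filter gave 1. Leaving out 1 library gave 7 to 9 for WT 3 h against 0 h, 1 to 9 for KO against WT at 3 h, 0 to 5 for the difference of the changes at 3 h, 6 to 9 for WT 12 h against 3 h and 0 for WT 1 h against 0 h. The 8 genes of most similar pattern fell to 3 without WT 3 h replicates 2 and 3. Without those 2 livers the sign turned for Saa1 (-0.08), Saa2 (-1.01) and Orm2 (-2.28) in WT livers at 3 h against 0 h. It also turned for Saa1 (1.22), Saa2 (3.40), Orm2 (1.87) and Lcn2 (0.61) in KO against WT at 3 h, and for Saa2 (1.17) and Orm2 (1.21) in WT livers at 12 h against 3 h. Library size alone moved the median of all genes by -0.37 (WT 12 h against 0 h), -0.26 (KO 12 h against 0 h) and -0.28 (WT 12 h against 3 h) on the log2 scale, and split all called genes into 689 higher and 1191 lower, against 961 and 904, in WT livers at 3 h. Apart from the sign changes that follow from leaving those livers out, the cause was not tested.

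The replicate numbers did not pair the samples. Correlations of deviations between same-numbered livers ran from -0.168 to 0.152, and 0 of 11 comparisons had all 3 pairs above 0.1. With the replicate block 9 genes were called in WT 3 h against 0 h and 5 in KO against WT at 3 h.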
